A study of Homo sapiens with 6 samples.

Results

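Keratins are the intermediate filament proteins of epithelial cells, and each filament is built from equal parts of a type I (acidic) and a type II (basic to neutral) keratin. The partners are expressed in pairs that mark a cell's position and state. KRT5 and KRT14 mark basal cells of the breast and other stratified or bilayered epithelia, and KRT8 and KRT18 mark simple and luminal cells. KRT1 with KRT10, and KRT4 with KRT13, mark differentiating cells of the skin and of moist stratified linings, and the hair and root sheath keratins belong to the follicle.

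The members were all genes whose symbol is KRT followed by a number and at most 1 letter and that were read by a probe set with exactly 1 gene symbol. Pseudogenes and keratin-associated genes were left out. This rule gave 48 keratins of the 18417 genes in the table, 28 of type I and 20 of type II. They comprised 3 of 4 listed basal keratins (KRT5, KRT14, KRT15), all 5 luminal or simple keratins (KRT7, KRT8, KRT18, KRT19, KRT20), 12 of 15 squamous keratins, 14 of 17 hair keratins, 9 of 9 keratins of the inner root sheath and companion layer, and 5 others. The other 7 genes of these class lists were not analysed here.

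The arrays read RNA of MCF10A cells, an immortal line of human breast epithelium that does not form tumors, carrying ErbB2, a receptor tyrosine kinase. All cells were grown for 7 days in reconstituted basement membrane in a medium with insulin, cholera toxin, hydrocortisone and horse serum, and RNA was taken from cells and matrix together. By their labels 3 arrays held RB-proficient cells (titles with the tag miNS) and 3 held RB-deficient cells (tag miRB), where RB is the retinoblastoma protein, and they do not spell out these tags. They do not say whether the 3 samples of a group were separate cultures or clones, so p-values reflect no more than the scatter of these samples, which may be technical. Values are log2 intensities on arrays scaled to the same median, with 0 as the floor, and a difference is RB-deficient minus RB-proficient. Intensities of different probe sets are not read as relative RNA amounts.

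RB1 itself was lower on average among RB-deficient-labelled arrays (difference −1.95, SE 0.75, limma adjusted p 0.301) but did not separate the groups. Its values were 6.95, 5.71 and 7.59 in RB-proficient arrays, and 3.39, 5.03 and 5.98 among RB-deficient-labelled arrays, so every direction rests on the labels. The RB-deficient-labelled arrays also varied more, with a median SD of a gene of 0.84 against 0.40, and correlated with each other across genes at 0.67 to 0.75 against 0.90 to 0.92 among RB-proficient arrays. EPCAM, a surface marker of epithelial cells, was high in all 6 arrays, with means of 9.97 ± 0.04 and 10.21 ± 0.17 (SD, n = 3 each). Of the 9 epithelial markers measured, 6 were lower without overlap among RB-deficient-labelled arrays (list median −1.54), where 15.3% of all genes were lower without overlap and the median of all genes was −0.21, and their summed intensity was 2344 to 2782 against 1663 to 1982. Summed intensities of the 10 fibroblast, 10 endothelial and 9 leukocyte markers were 173 to 225, 571 to 704 and 363 to 497 in RB-proficient arrays, and 160 to 300, 433 to 591 and 279 to 326 among RB-deficient-labelled arrays. These sums add linear intensities, so the brightest probe sets weigh most in them. The brightest of the epithelial, endothelial and leukocyte lists were EPCAM, CDH5 and CD68 (means of 10.09, 8.43 and 7.56 over all arrays). The sums are therefore not read as amounts of a cell type. The fibroblast list had 3 markers at the floor in at least 1 array, among them COL3A1, and the endothelial and leukocyte lists had 0. The reference genes ACTB (difference −1.92) and GAPDH (−1.23) were lower in every array labelled RB-deficient, and the part of these shifts in the keratin values was not tested. In such bulk samples, fewer cells of a type and less RNA per cell cannot be told apart.

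Proximal promoters are shown for keratins whose values are described in the results, to let their start regions be compared. The sequences are from RefSeq (GRCh38.p14), cover the 100 bases before the annotated start, lie on the minus strand and read 5′ to 3′ along the gene. Capitals mark TATAA, the core of the TATA box, where it lies wholly within the window from 40 to 16 bases before the start. The stretches are chr12:52520395-52520494 for KRT5, chr12:52926470-52926569 for KRT8, chr12:52814117-52814216 for KRT4, chr17:40822615-40822714 for KRT10, chr17:40867224-40867323 for KRT12, chr17:41397609-41397708 for KRT31 and chr17:41382307-41382406 for KRT34.
KRT5: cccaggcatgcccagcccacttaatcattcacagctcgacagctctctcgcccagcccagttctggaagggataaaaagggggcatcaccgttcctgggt
KRT8: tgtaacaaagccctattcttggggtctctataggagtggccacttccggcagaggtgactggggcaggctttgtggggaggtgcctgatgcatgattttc
KRT4: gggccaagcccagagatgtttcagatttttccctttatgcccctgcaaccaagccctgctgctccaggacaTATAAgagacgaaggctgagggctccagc
KRT10: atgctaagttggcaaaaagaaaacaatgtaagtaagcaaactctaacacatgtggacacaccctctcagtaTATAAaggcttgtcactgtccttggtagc
KRT12: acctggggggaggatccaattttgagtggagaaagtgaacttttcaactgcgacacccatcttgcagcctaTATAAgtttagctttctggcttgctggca
KRT31: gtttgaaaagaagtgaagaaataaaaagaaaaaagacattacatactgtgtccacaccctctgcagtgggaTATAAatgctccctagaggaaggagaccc
KRT34: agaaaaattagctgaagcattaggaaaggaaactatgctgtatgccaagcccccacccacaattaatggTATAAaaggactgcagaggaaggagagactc

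The letters TATAA began 29 bases before the start in KRT4, KRT10, KRT12 and KRT31, and 31 bases before it in KRT34. RefSeq promoters were at hand for 33 of the 48 keratins, and 21 of these held TATAA in that window on the gene's strand. By promoter the share was 59.5% of 37 keratin entries, against 3.91% of all 35116 entries. All 7 squamous keratins with an entry held it, as did 9 of 13 hair keratins, while the single basal entry (KRT5) and the 2 luminal entries (KRT8 and KRT20) did not. Variants of TATAA were not searched, so an entry without these letters, such as KRT5, may still hold a TATA-like stretch. The E2F-type letters TTTCCCGC, TTTCGCGC, TTTGCCGC or TTTGGCGC, on either strand in the 250 bases before the start, stood in 0 of 37 keratin entries and in 2.79% of all entries. The GC box letters GGGCGG, on either strand in the same stretch, stood in 10.8% of keratin entries and 42.6% of all. These matches describe the letters of the windows searched, and neither a match nor its absence shows whether a factor binds.

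No keratin passed an adjusted p of 0.05 over all 18417 genes in limma's test, where 0.00543% of all genes passed. The smallest adjusted p among keratins was 0.163 (KRT31). At an unadjusted p under 0.05, 12 keratins were lower among RB-deficient-labelled arrays (KRT1, KRT4, KRT5, KRT7, KRT8, KRT12, KRT15, KRT18, KRT31, KRT33A, KRT35 and KRT72), where 10.9% of all genes were lower at that threshold, and 2 were higher (KRT34 and KRT40), where the share of all genes was 2.85%. The total of 14 keratins was 6, 9 and 8 without RB-proficient arrays 1, 2 and 3, where the share of all genes is not given. There was no overlap between the groups for 14 keratins that were lower, which is 29.2% of the 48 against 15.3% of all genes, and for 2 that were higher, against 7.12%, so 16 in all against a share of 22.4% of genes. With an offset of 16 added before log2, or with limma's trend and robust options, KRT1 (adjusted p 0.0417 and 0.0449) and KRT7 (adjusted p 0.0435 and 0.0485) passed over all genes.

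Of the 48 keratins 33 had a difference below 0, as had 58.6% of all genes. The median difference over them was −0.61, and it was −0.21 over all genes. By class it was −1.07 for the 3 basal keratins, −1.27 for the 5 luminal, −0.94 for the 12 squamous, −0.29 for the 14 hair and −0.91 for the 9 root sheath keratins. The luminal median was −0.82 without the arrays labelled RB-deficient 1 and 2, the hair median ran to −0.57 without the array labelled RB-deficient 1 and to −0.03 without RB-deficient 2, and the root sheath median was −0.38 with the offset of 16 and 0 with the floor of 16. It was 0.28 where genes under the median intensity were left out, which leaves 1 of the 9 root sheath keratins (KRT27). Type I and type II keratins had medians of −0.48 and −0.81, with 19 of 28 and 14 of 20 members lower. These medians are descriptions without a test. The differences also went with mean log2 intensity. The median was −1.30 for the 16 keratins with a mean of at least 6 (15 lower) and −0.19 for 32 under 6 (18 lower). Over all genes these medians were −0.38 (70.5% lower) and −0.11 (54.1% lower). Above the median intensity of all genes lay 3 of 3 basal, 3 of 5 luminal and 10 of 12 squamous keratins. Of the hair and root sheath keratins 7 of 14 and 1 of 9 did. The part of intensity in the class medians was not tested.

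**Figure D1:**
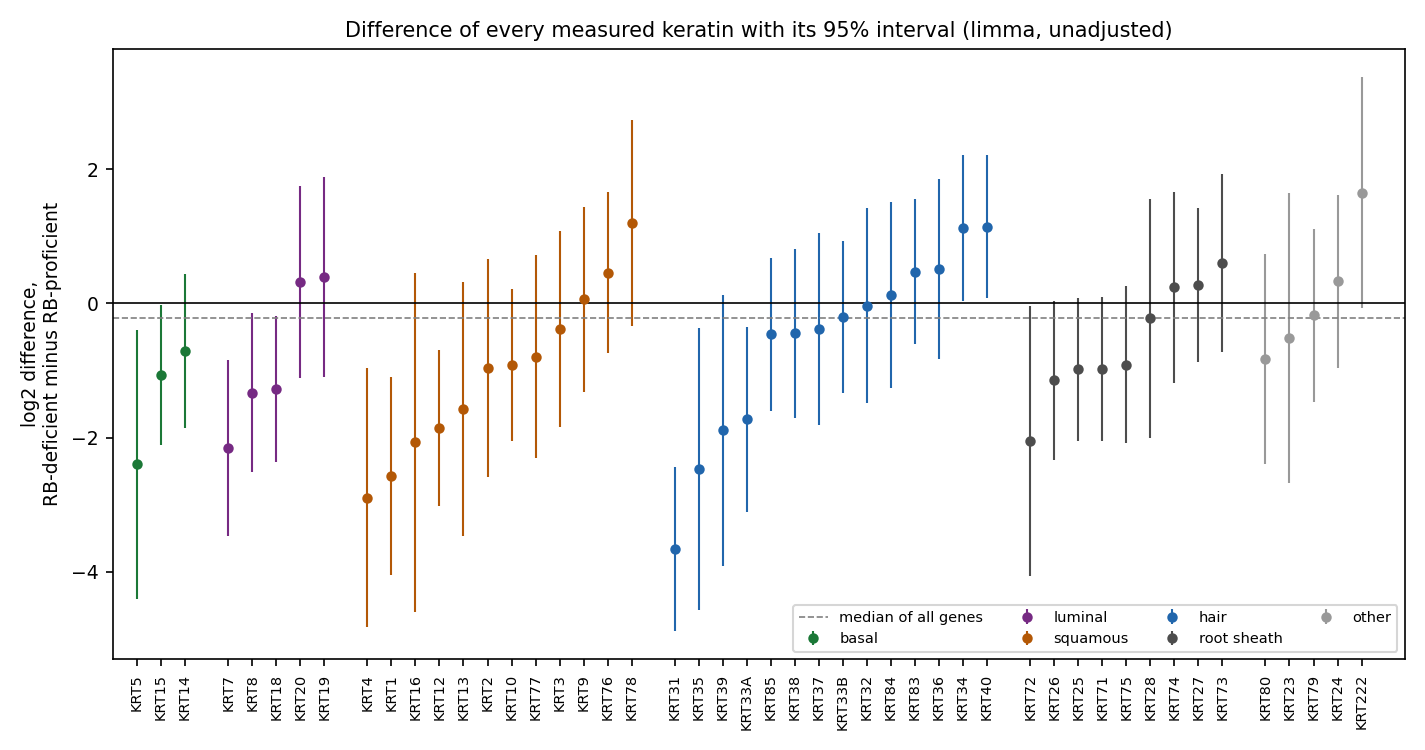
The log2 difference (RB-deficient minus RB-proficient) of each of the 48 keratins is plotted by class, with points for the limma estimate and bars for its unadjusted 95% interval, and the dashed line is the median of all genes (−0.21). All 3 basal keratins, 3 of 5 luminal and 9 of 12 squamous keratins lie below 0, and the hair keratins run from −3.66 to 1.15.

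Among the basal keratins, KRT5, the type II keratin of basal cells, had log2 intensities of 9.57, 9.24 and 11.58 in RB-proficient arrays 1 to 3 against 9.52, 6.32 and 7.36 in those labelled RB-deficient 1 to 3. RB-proficient 3 stood above the other arrays, and RB-deficient 1 lay within the RB-proficient range, so the groups overlapped. The difference was −2.40 (SE 0.90, adjusted p 0.289). KRT14, its type I partner, had values of 8.71, 8.83 and 8.94 against 8.74, 7.49 and 8.14, a difference of −0.71 (SE 0.51, adjusted p 0.563), which was −0.39 without the array labelled RB-deficient 2. RB-deficient 1 again lay inside the RB-proficient range and only the other 2 lay below it. KRT15, a type I keratin of basal cells with no fixed partner, had values of 11.19, 11.44 and 11.80 against 10.47, 10.41 and 10.35. The groups did not overlap for KRT15, and its difference was −1.07 (SE 0.47, adjusted p 0.357).

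**Figure D2:**
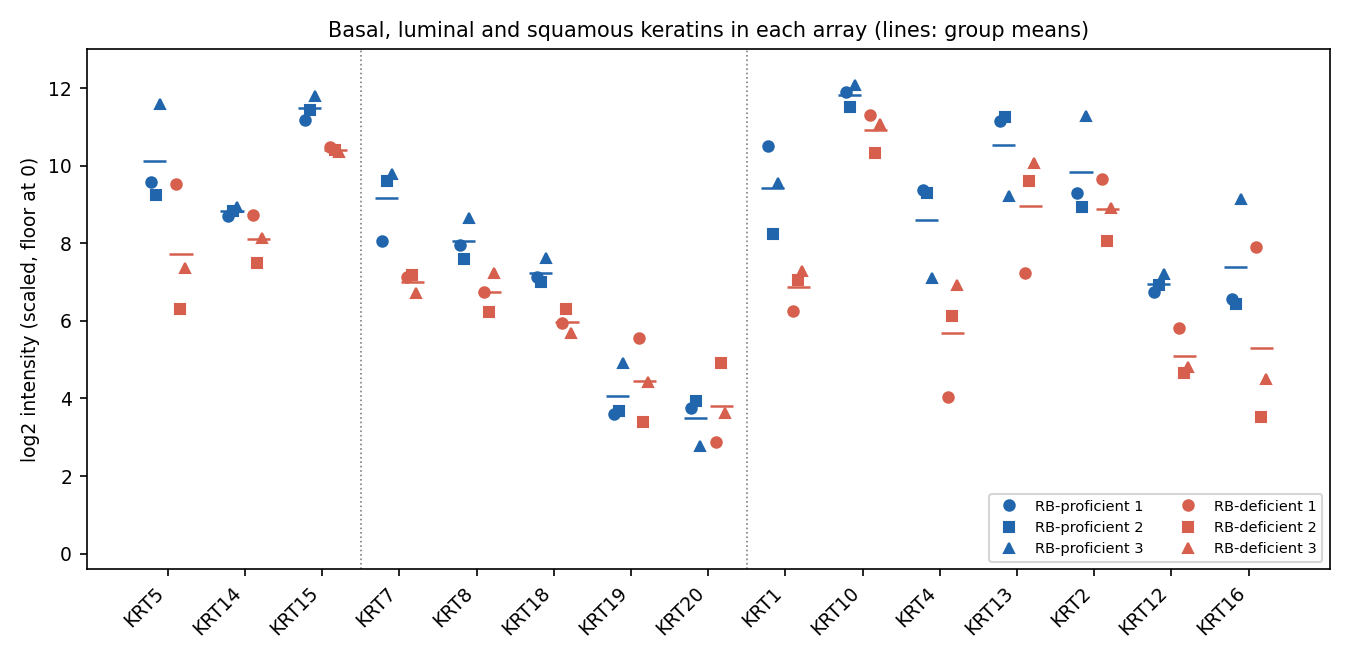
Log2 intensities (y axis) of the basal, luminal and named squamous keratins in each of the 6 arrays, with blue for RB-proficient and red for RB-deficient, symbols for the replicate number and short lines for group means; dotted lines part the classes. KRT15, KRT7, KRT8, KRT18, KRT1, KRT10, KRT4 and KRT12 show no overlap, while KRT19 and KRT20 overlap.

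Among the luminal keratins, KRT7, a type II keratin of simple and glandular epithelium, had values of 8.07, 9.61 and 9.79 in RB-proficient arrays, and 7.12, 7.17 and 6.72 among RB-deficient-labelled arrays. The groups did not overlap, and KRT7 was 4.45-fold lower (difference −2.15, SE 0.58, 95% interval −3.46 to −0.85, adjusted p 0.212). KRT8, the type II keratin of simple epithelium, had values of 7.97, 7.58 and 8.64 against 6.75, 6.22 and 7.24, a difference of −1.33 (SE 0.53, adjusted p 0.316). Every KRT8 value of the RB-deficient-labelled arrays lay below every RB-proficient value, and the difference was −0.82 with RB-deficient 3 as the only array of its group.

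KRT18, the type I partner of KRT8, had values of 7.13, 6.99 and 7.61 against 5.94, 6.30 and 5.68, also without overlap. Its difference was −1.27 (SE 0.48, adjusted p 0.294), and another probe set with the KRT18 symbol differed by −1.48, from 5.51, 5.45 and 6.57 to 4.36, 4.82 and 3.89. KRT8 and KRT18 have many near-identical pseudogene copies, so reads of their probe sets are uncertain in that respect. KRT19, a type I keratin of luminal and simple cells, had low values of 3.60, 3.69 and 4.91 against 5.55, 3.39 and 4.42 (difference 0.39, SE 0.67, adjusted p 0.813). KRT20, a keratin of gut and urothelial lining, had values of 3.75, 3.94 and 2.77 against 2.88, 4.91 and 3.62 (difference 0.32, SE 0.64, adjusted p 0.841). For both the groups overlapped, and the sign turned with single arrays left out.

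Among the squamous keratins, KRT1, the type II keratin of suprabasal skin cells, had values of 10.52, 8.23 and 9.55 in RB-proficient arrays, and 6.24, 7.06 and 7.29 among RB-deficient-labelled arrays. The groups were apart, and KRT1 was 5.93-fold lower (difference −2.57, SE 0.66, 95% interval −4.04 to −1.10, adjusted p 0.209). KRT10, its type I partner, had values of 11.90, 11.50 and 12.09 against 11.31, 10.33 and 11.08, also without overlap and with a smaller difference of −0.92 (SE 0.50, adjusted p 0.448).

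KRT4, the type II keratin of moist stratified epithelium such as that of the esophagus, had values of 9.37, 9.29 and 7.11 against 4.04, 6.14 and 6.92. The groups did not overlap, but RB-proficient 3 and RB-deficient 3 lay close together. The difference was −2.89 (SE 0.86, 7.42-fold lower, adjusted p 0.232), and −1.67 without the arrays labelled RB-deficient 1 and 2. KRT13, its type I partner, had values of 11.15, 11.24 and 9.22 against 7.23, 9.60 and 10.06, so RB-proficient 3 lay below 2 arrays of the other group. Its difference was −1.57 (SE 0.84, adjusted p 0.442), and −0.71 without RB-deficient 1.

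KRT12, known as the type I keratin of the corneal surface, had values of 6.74, 6.92 and 7.20 against 5.83, 4.66 and 4.81, without overlap (difference −1.85, SE 0.52, adjusted p 0.219). KRT2, a type II keratin of upper skin layers, had values of 9.30, 8.92 and 11.29 against 9.66, 8.05 and 8.91 (difference −0.96, SE 0.72, adjusted p 0.577; −0.24 without RB-proficient 3). KRT16, a type I keratin of stressed and hyperproliferative epithelium, had values of 6.57, 6.44 and 9.14 against 7.90, 3.53 and 4.51 (difference −2.07, SE 1.12, adjusted p 0.447), and its difference ran from −3.36 without RB-deficient 1 to −1.18 without RB-deficient 2. For KRT2 and KRT16 the groups overlapped, with RB-proficient 3 and RB-deficient 1 as the highest arrays of their groups. KRT16 also has near-identical pseudogenes, which its probe set may read. The other 5 squamous keratins differed by −0.79 to 1.21, with 2 lower and 3 higher, a smallest adjusted p of 0.462 and overlapping groups.

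KRT5, KRT2 and KRT16 stood high in the same arrays in which KRT4 and KRT13 stood low. In RB-proficient 3, KRT5, KRT2 and KRT16 lay 2.18, 2.18 and 2.63 above the mean of the other 2 RB-proficient arrays, and KRT4 and KRT13 differed from it by −2.22 and −1.98. In the array labelled RB-deficient 1, KRT5, KRT2 and KRT16 lay 2.68, 1.18 and 3.88 above the other 2 arrays of that group, and KRT4 and KRT13 differed from them by −2.48 and −2.60. These 5 genes were chosen after their values were seen. In RB-proficient 3, 7 of 48 keratins (14.6%) lay more than 1.5 from the mean of the other 2 arrays, where 5.92% of all genes did. In the array labelled RB-deficient 1 these shares were 37.5% of keratins and 29.5% of all genes.

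Partner keratins were compared by the log2 ratio of the type II to the type I partner within each array, which does not depend on scaling. Of 9 pairs fixed for this, 7 were measured, and with 3 arrays against 3 the smallest p an exact two-sided permutation test allows is 0.1, so no pair could pass 0.05. The ratio of KRT4 to KRT13 was −1.78, −1.96 and −2.10 in RB-proficient arrays, and −3.18, −3.46 and −3.14 among RB-deficient-labelled arrays. The groups were apart, with SDs of 0.16 and 0.17, and the ratio was lower by a difference of −1.32 (exact p 0.1, 0.233 after Benjamini-Hochberg adjustment over the 7 pairs). The KRT4 to KRT13 ratio was thus steady within each group, although each of the partners spanned more than 1.5 log2 units there. The size of its change depended on the low values of KRT4, and was −0.96 with an offset of 16 added before log2.

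The ratio of KRT3 to KRT12, the corneal pair, was −1.15, −0.83 and −1.15 and lay between −0.02 and 1.1 in the other group, a difference of 1.47 that also reached the smallest exact p of 0.1 (adjusted 0.233). KRT3 itself differed by −0.38 (SE 0.65), against −1.85 for KRT12. The ratio of KRT8 to KRT18 was 0.84, 0.59 and 1.03 against 0.81, −0.07 and 1.56, with a difference of −0.055 (exact p 0.9, adjusted 0.9), so the partners were lower by like amounts on average while single arrays differed. The ratios of KRT5 to KRT14 (difference −1.69; −1.02 without RB-proficient 3), KRT1 to KRT10 (−1.65), KRT76 to KRT10 (1.38; 0.74 without RB-deficient 2) and KRT85 to KRT35 (2.01; −0.16 without the arrays labelled RB-deficient 1 and 2) each had an exact p of 0.2 and an adjusted p of 0.233.

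**Figure D3:**
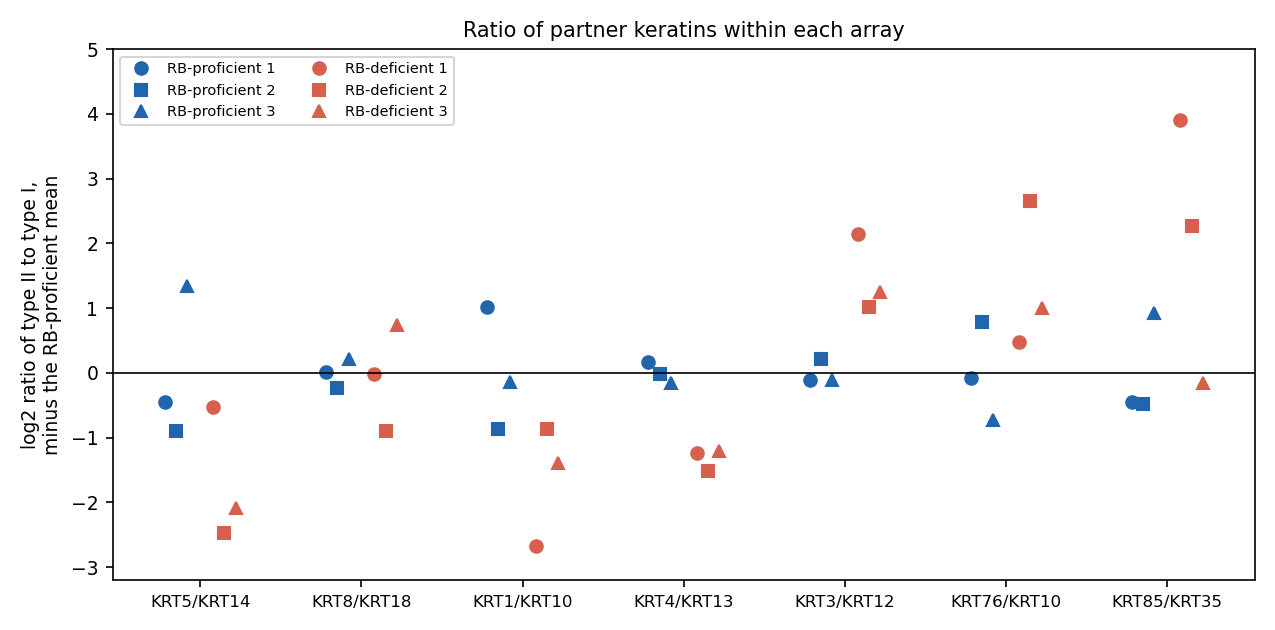
The log2 ratio of type II to type I partner in each array, minus the RB-proficient mean of that pair, is plotted for 7 partner pairs (blue RB-proficient, red RB-deficient, symbols by replicate number). KRT4/KRT13 and KRT3/KRT12 separate the groups, in opposite directions, and KRT8/KRT18 is spread around 0.

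The hair keratins had no common direction: 9 of 14 were lower and 5 higher. KRT31, a type I keratin of the hair cortex, had low values of 3.97, 3.82 and 4.48 in RB-proficient arrays, and 0, 0 and 1.29 among RB-deficient-labelled arrays, where 0 is the floor. Its difference of −3.66 (SE 0.55, adjusted p 0.163) depends on the floor: it was −0.96 with the offset of 16 and −0.16 with a floor of 16. KRT33A, a related cortex keratin, had values of 6.29, 5.94 and 6.71 against 4.95, 3.40 and 5.40, without overlap (difference −1.73, SE 0.62, adjusted p 0.281; −1.13 without RB-deficient 2). KRT35, an early hair matrix and cortex keratin, had values of 6.90, 6.65 and 5.13 against 2.38, 2.88 and 6.03. RB-deficient 3 lay inside the RB-proficient range, and the KRT35 difference of −2.46 (SE 0.94, adjusted p 0.295) was −0.20 with that array alone in its group and −1.44 with the offset of 16.

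In the other direction, KRT34, a type I hair keratin that neighbours KRT31, had values of 4.51, 4.93 and 4.95 in RB-proficient arrays, and 6.38, 5.78 and 5.61 among RB-deficient-labelled arrays. The groups did not overlap (difference 1.13, SE 0.49, adjusted p 0.351). KRT40, a late hair cuticle keratin, had values of 4.78, 4.67 and 4.95 against 5.96, 6.28 and 5.60, also apart (difference 1.15, SE 0.47, adjusted p 0.330). Their size ran from 0.80 to 1.32 over the 16 alternatives, some of which cannot change a difference. KRT31, KRT33A and KRT34 are close paralogs in 1 gene cluster, and their probe sets may read each other's transcripts, so the opposite signs of KRT31 and KRT34 are values of these probe sets.

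**Figure D4:**
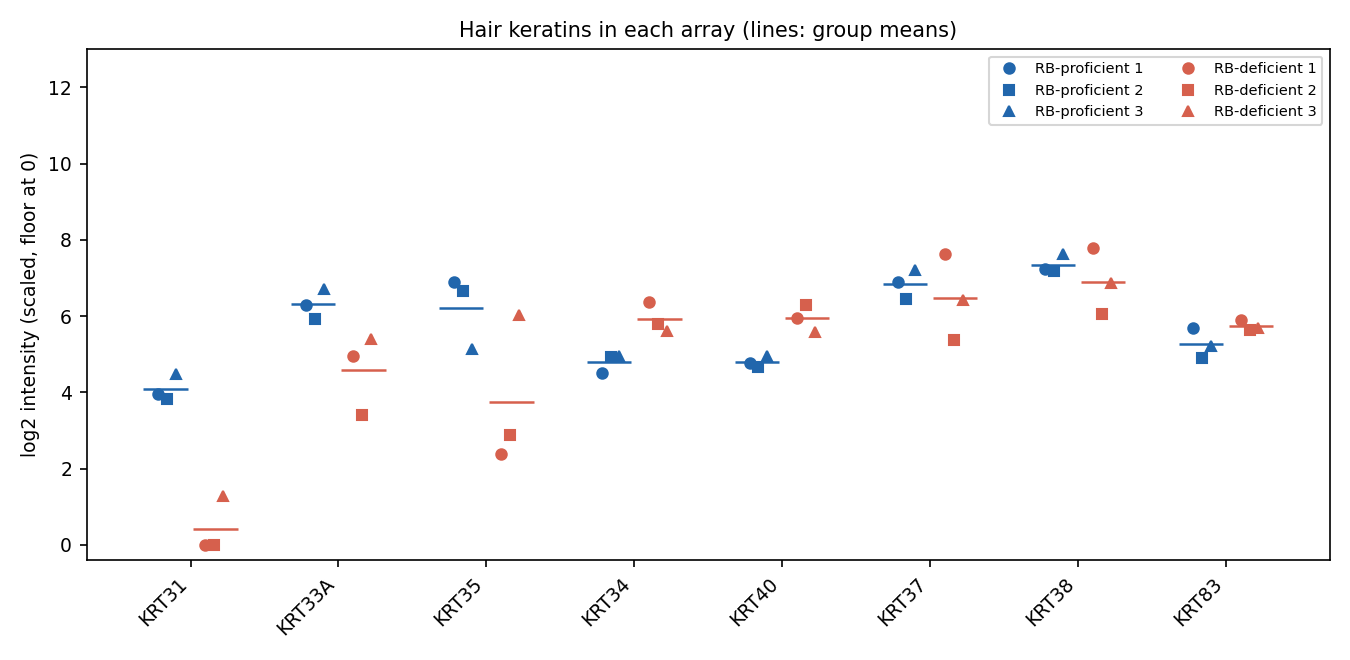
Log2 intensities (y axis, floor at 0) of 8 hair keratins in each of the 6 arrays, with blue for RB-proficient, red for RB-deficient, symbols for the replicate number and short lines for group means. KRT31 and KRT33A lie lower and KRT34 and KRT40 higher in the red arrays without overlap, and KRT37 and KRT38 overlap.

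KRT37 (6.90, 6.44 and 7.21 against 7.63, 5.37 and 6.42) and KRT38 (7.23, 7.19 and 7.62 against 7.79, 6.06 and 6.86), a pair of neighbouring type I hair keratins, followed each other across the arrays, with RB-deficient 1 the highest and RB-deficient 2 the lowest for both. Their differences were −0.38 (SE 0.64, adjusted p 0.809) and −0.45 (SE 0.56, adjusted p 0.743). Without RB-deficient 1 they were −0.96 and −0.89, and without RB-deficient 2 they were 0.17 and −0.023. KRT83, a type II hair cortex keratin, had values of 5.68, 4.89 and 5.22 against 5.91, 5.64 and 5.68 (difference 0.48, SE 0.48, adjusted p 0.676), with overlapping groups. The other 6 hair keratins differed by −1.89 to 0.51, with a smallest adjusted p of 0.387 and overlapping groups.

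Of the root sheath keratins, KRT72 had values of 3.56, 2.58 and 3.48 against 0, 3.48 and 0, so its difference of −2.05 (SE 0.90, adjusted p 0.357) rests on the floor in 2 arrays and was −0.40 with the offset of 16. The other 8 differed by −1.14 to 0.61, and 4 of them, KRT25 (−0.98), KRT26 (−1.14), KRT71 (−0.98) and KRT75 (−0.91), were lower without overlap (15.3% of all genes were), with adjusted p from 0.374 to 0.467. With the floor of 16 these differences were −0.14 for KRT25, −0.39 for KRT26, −0.87 for KRT71 and −0.15 for KRT75, and with the offset of 16 they were −0.42, −0.52, −0.56 and −0.38. KRT27, an inner root sheath keratin, differed by 0.28 (SE 0.51), with overlapping groups. Of the 5 remaining keratins (KRT23, KRT24, KRT79, KRT80 and KRT222), 3 were lower and 2 higher, from −0.83 to 1.65, with overlapping groups. In all, 3 keratins had a value at the floor in at least 1 array, and 3 lay below an intensity of 16 (a log2 value of 4) in all 6 arrays.

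**Figure D5:**
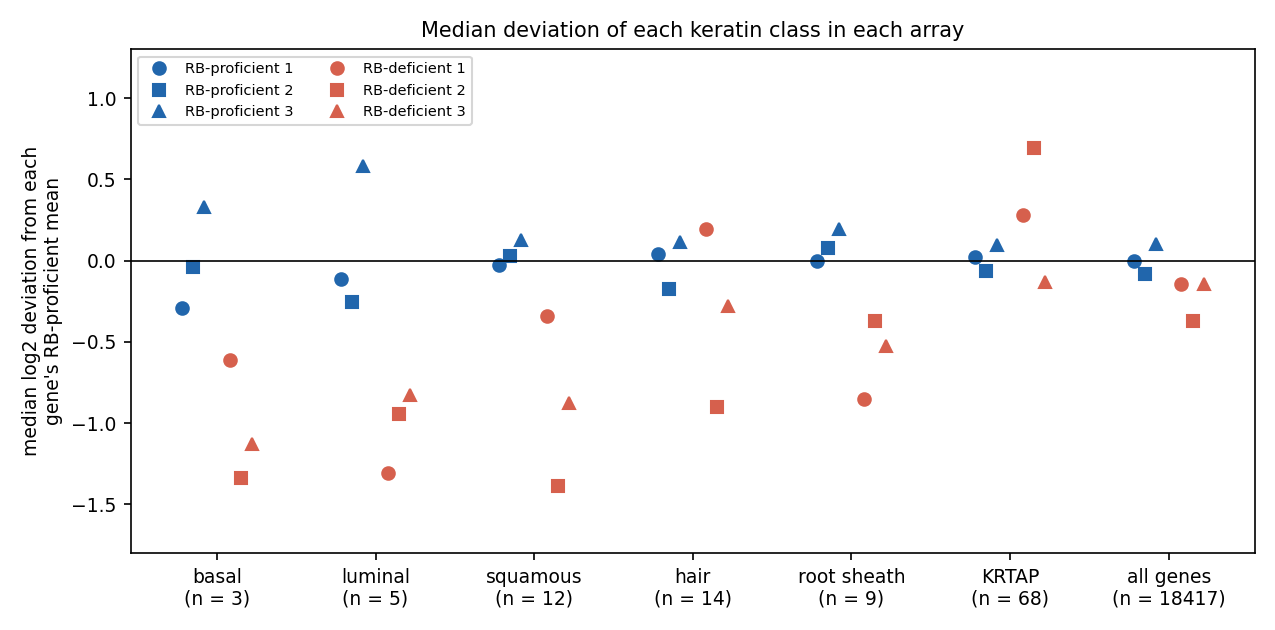
For each keratin class, the KRTAP genes and all genes, the points give the median log2 deviation of the members from their own RB-proficient means in each array (blue RB-proficient, red RB-deficient, symbols by replicate number). All 3 red arrays lie below the blue ones for the basal, luminal, squamous and root sheath classes, as they do for all genes (red −0.37 to −0.14), and the red arrays straddle 0 for hair keratins and KRTAP genes.

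By array, the median deviation of the basal keratins from their RB-proficient means came to −0.61, −1.34 and −1.13 for those labelled RB-deficient 1 to 3, and to −0.29 up to 0.33 for RB-proficient arrays. For the luminal keratins it was −1.31, −0.95 and −0.82, for the squamous keratins −0.34, −1.39 and −0.88, and for the root sheath keratins −0.85, −0.37 and −0.53. For the hair keratins it was 0.19, −0.90 and −0.28. RB-deficient 1 was thus the lowest array for luminal and root sheath keratins and the nearest to the RB-proficient arrays for basal, squamous and hair keratins. Over all genes the medians were −0.14, −0.37 and −0.14.

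Genes that work with keratins were given as whole lists. The 68 measured KRTAP genes, which encode the matrix proteins that embed hair keratin filaments, had 41 members higher and 27 lower, with a median of 0.17 and 5 higher and 2 lower without overlap. Over all genes 7.12% were higher and 15.3% lower without overlap, so the 5 of 68 KRTAP genes lie near the background share. Of 14 filament partners (plakins, desmosomal plaque proteins and other binders), 11 were lower, 6 of them without overlap, with a median of −0.64, and 0 passed the adjusted threshold. Of all genes 58.6% had a difference below 0 and 15.3% were lower without overlap. JUP, the plaque protein plakoglobin, had values of 7.63, 7.97 and 8.08 against 5.52, 6.07 and 5.80 (difference −2.10, SE 0.47, adjusted p 0.203). SFN, a 14-3-3 protein, had values of 8.55, 8.53 and 9.15 against 7.29, 6.56 and 6.97 (3.49-fold lower, SE 0.49 on the log2 scale, adjusted p 0.212). With the offset of 16 JUP (adjusted p 0.0320) and SFN (0.0435) passed. TCHP, the keratin-binding protein trichoplein, differed by −1.69 (SE 0.57, adjusted p 0.266).

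Of 17 measured regulators of keratin genes, 12 were lower and 5 higher, with a median of −0.49 and 0 past the adjusted threshold. Without overlap 4 were lower and 1 higher. Of all genes 58.6% had a difference below 0, and 15.3% were lower and 7.12% higher without overlap. GRHL2 and ELF3 of this list are also among the epithelial markers. TFAP2A, an AP-2 factor that binds epidermal keratin promoters, had values of 7.89, 7.09 and 7.70 against 5.97, 6.22 and 6.53 (difference −1.32, SE 0.49, adjusted p 0.288). The grainyhead factors GRHL2 (difference −1.51, SE 0.57) and GRHL3 (−1.39, SE 0.53), which drive epithelial and epidermal programmes, also had no overlap between groups (adjusted p 0.294 each).

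Of 15 other intermediate filament genes, 9 were lower and 6 higher, with a median of −0.23, or 0.09 with the floor of 16. The share that was lower (60%) lay near that of all genes (58.6%). VIM, the mesenchymal filament protein vimentin, had values of 3.24, 5.92 and 6.17 against 5.37, 5.19 and 2.62 (difference −0.72, SE 0.95, adjusted p 0.755), so it varied within both groups. Without RB-deficient 3 the VIM difference was 0.17, and with other single arrays left out it ran from −1.65 to −0.19. The smallest p values of that list belonged to BFSP1, a lens filament protein (difference −2.53, SE 0.84), and the lamins LMNB2 (−1.79, SE 0.66) and LMNA (−1.27, SE 0.57), with adjusted p of 0.264, 0.286 and 0.364.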

How the data were processed

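Per the labels' protocols, the RNA amplification kit was WT-Ovation Pico, and the label was biotin. The authors processed the arrays in Affymetrix Expression Console 1.1, according to the submitters' processing notes; how background and normalization were handled is not given in the sources used here. Values as deposited are linear intensities for 33297 probe sets, with array medians from 21.4 to 28.0. Each array was scaled to the mean of these medians, and log2 was taken with a floor of 1. Of the probe sets, 19460 had 1 symbol and 1754 had several, and 12083 were unnamed; where a gene had several, the probe set of highest mean was taken. All 48 keratin probe sets matched RefSeq by gene number. Detection calls were not used, so whether a dim probe set lay above background is unknown, and the number of arrays limits the precision.

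The test was two-sided, by lmFit and eBayes of limma 3.58.1 (R 4.3.3), without covariates, with Benjamini-Hochberg adjustment over 18417 genes. On simulated data for this comparison (18417 genes), the share of changed genes recovered was 0.182% at 2-fold, 1.20% at 4-fold, 25.9% at 8-fold and then 71.3% at 32-fold. The simulation drew independent normal values with the same SD in both groups and no floor, and changed few genes, in random directions. The groups here differed in spread and held values at the floor, so these shares may not hold for the data. The members, lists and tests were chosen with earlier results of these data known. Individual values were given for all measured basal and luminal keratins, the 4 squamous and 3 hair keratins with the highest mean, KRT1, KRT10, KRT4, KRT13 and KRT16, all keratins with an unadjusted p under 0.05, and up to 3 genes of each partner list with the smallest p, with VIM. KRT25, KRT26, KRT71, KRT75, KRT27 and the other pair members were added after their values were seen. Alternatives were quantile normalization, centring on the gene median, no scaling, a floor or an offset of 16, omission of genes under the median of mean intensity, the mean of the probe sets, eBayes with trend and robust, a replicate block, and omission of arrays.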

Additional observations from a re-analysis of the deposited data

How the results depend on the processing

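Of 32 keratins given singly or in a pair, 28 kept their sign in each of up to 16 alternatives. Trend and robust, the replicate block and the omission of dim genes cannot change a difference. The mean of the probe sets changes none where a gene has 1 probe set. A kept sign in these alternatives was thus fixed in advance. The sign turned for KRT37 (0.17 without RB-deficient 2), KRT19 (−0.16 without RB-deficient 1), KRT20 (−0.040 without RB-proficient 3 and −0.23 without RB-deficient 2) and KRT3 (0.065 without RB-deficient 2). With single arrays left out these differences ran from −0.96 to 0.17 for KRT37, −0.16 to 0.92 for KRT19, −0.23 to 0.78 for KRT20 and −1.08 to 0.065 for KRT3. The ratio change of KRT8 to KRT18 ran from −0.45 to 0.36 in the same way (0.051 without RB-proficient 3), and was 0.051 with the mean of the probe sets and 0.74 without the arrays labelled RB-deficient 1 and 2, where that of KRT85 to KRT35 was −0.16. The cause was not tested.

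The count of keratins past the adjusted threshold went from 0 to 2 with the offset of 16 and to 2 with trend and robust, and that of the partner, regulator and filament genes from 0 to 2 with the offset. The count over all genes was 1, and 0 after quantile normalization, 61 with the floor of 16, 176 with the offset, 4 without genes under the median intensity, 61 with trend and robust, 0 with any array left out and 0 without RB-deficient 1 and 2. With single arrays left out, 6 to 15 keratins had an unadjusted p under 0.05 in limma's test (6 to 14 lower, 0 to 3 higher). Groups that did not overlap numbered 18 to 26 (15 to 23 lower, 2 to 6 higher), and 33 without both arrays (25 lower, 8 higher), since fewer arrays overlap less; the lower count was 9 without genes under the median intensity. The luminal median was −0.82 without RB-deficient 1 and 2.

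The replicate block changed no adjusted call among keratins (0), and left 0 keratins higher at an unadjusted p under 0.05. Deviations of same-numbered arrays correlated across genes at −0.12, 0.07 and −0.11, so no shared effect of the replicate number was visible. These correlations cannot tell whether same-numbered samples were prepared together. The median of all genes moved from −0.21 to −0.09 after quantile normalization and to −0.08 with centring, and class medians for keratins shift with it. Dim hair and root sheath keratins depend on the floor.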
